A study of Mus musculus with 62 samples.

Results

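Transcripts of 42 genes of endoplasmic reticulum folding and secretion were followed in mouse liver by RNA sequencing, in animals that differed in surgery and in diet. The genes were taken from a list of symbols that was chosen with earlier results of these data known. Counts of them set beside the share of all genes are therefore descriptions. They were found by gene identifier in the table of counts per gene, where all 42 were present among 56884 identifiers. All 42 genes passed the filter on low counts. They comprise luminal chaperones and their co-chaperones, lectins, disulfide isomerases, small luminal proteins, parts of the degradation machinery, stress sensors, the protein translocon with its processing enzymes, and coat proteins of transport vesicles.

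Male C57BL/6J mice, an inbred strain, ate a Western diet (WD, 42% of energy as fat and 15.2% as protein) from 5 weeks of age and were operated on at 17 weeks of age. The operation was sleeve gastrectomy (SG), which removed about 75% of the stomach, or a sham procedure. From postoperative day 7 the mice ate P7, P21 or P36, diets with 7%, 21% or 36% of energy as protein and 20% as fat, or stayed on WD, and the liver was collected 14 weeks after surgery, at 31 weeks of age, after 16 h of fasting and 4 h of refeeding. Every compared mouse on P7, P21, P36 or WD had thus eaten WD before surgery, whereas a sham group labelled chow has no stated diet composition or earlier diet in the sources used here. As fat was 20% of energy in P7, P21 and P36, the energy from neither protein nor fat differed between them too. An effect of less protein cannot be told apart from one of more of that remainder. The compared groups were SG P7 (7 libraries), sham P7 (7), SG P21 (6), sham P21 (7), SG P36 (4), sham P36 (5), SG WD (8), sham WD (8) and sham chow (4). The single SG chow library entered no comparison. Mice were housed in pairs, and the labels do not tie mice to cages. Whole liver was sequenced, so fewer cells of a type and less RNA per cell cannot be told apart.

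The endoplasmic reticulum is where secreted and membrane proteins enter the secretory pathway, fold, acquire disulfide bonds and N-linked sugars, and are either packed into vesicles bound for the Golgi or returned to the cytosol for degradation. The hepatocyte secretes most plasma proteins and holds a large reticulum for this purpose. When unfolded proteins build up, the sensors IRE1 (gene Ern1), ATF6 and PERK (Eif2ak3) set off the unfolded protein response, in which the transcription factors XBP1 and ATF6 raise chaperone and secretory genes, while PERK slows translation and raises ATF4 and its targets.

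Library totals ran between 6.99 M (SG P21 library 4) and 34.01 M counts. Hepatocyte markers were present throughout, with albumin (Alb) between 27000 and 90510 CPM (counts adjusted for library size) over the 56 compared libraries. Pancreatic acinar markers, which would accompany admixed pancreas, summed to between 4.93 and 25.3 CPM over 11 genes, and 4 of the 11 had enough counts to be tested. One SG P7 library, number 7, stood apart from its group: its mean log2 CPM over the 42 genes was 7.01, while the other 6 SG P7 libraries lay between 6.0 and 6.41, and it was the highest of the group for 31 of the 42 genes. In the same library the ATF4 target Trib3 was at 4.17 CPM, while the other 6 SG P7 libraries had between 43.2 and 119 CPM. Values that rest on SG P7 and moved when this library was left out are given both ways. Among sham P21 libraries, numbers 1 and 2 were the highest for the 42 genes (means of 7.69 and 7.58), and number 6 was the lowest of the group for 33 of the 42. Mitochondrial genes held 10.84% and 10.6% of the counts in sham P21 libraries 1 and 2, against 6.44% to 7.79% in the rest of that group. Counts that rest on sham P21 and moved when libraries 1 and 2 were left out are given both ways. Among SG WD libraries, numbers 5 and 7 had the highest means of the 42 genes (7.15 and 7.24). Their mitochondrial shares were 5.79% and 5.73%, against 6.41% to 9.76% in the rest of that group. The bearing of these shares on the results was not tested.

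The endoplasmic reticulum stress element (ERSE), a sequence bound by ATF6 together with NF-Y, was looked for upstream of the genes because many members moved together. RefSeq promoter windows (250 bases before the transcription start and 50 after it, build GRCm38.p6) were found for 33 of the 42. The letters CCAAT, followed after any 9 bases by CCACG, searched on both strands, occurred in the windows of 10 of these 33 genes (30.3%) and in 37 of all 27025 genes with a window (0.137%). The 10 are among the 37. The list holds genes of the unfolded protein response, for which the element is named, so the 2 shares are descriptions and their difference was not tested. The matches are shown 5′ to 3′ on the strand that carries CCAAT, with the fixed bases in capitals and the spacer in lower case.
Hspa5 (chr2:34772025-34772043, plus strand): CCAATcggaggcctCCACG
Calr (chr8:84847075-84847093, plus strand): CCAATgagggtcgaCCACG
Derl3 (chr10:75893242-75893260, minus strand): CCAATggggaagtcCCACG
Hsp90b1 (chr10:86705638-86705656, minus strand): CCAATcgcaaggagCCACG
Hsp90b1 (chr10:86705533-86705551, plus strand): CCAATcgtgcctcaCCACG
Canx (chr11:50325800-50325818, minus strand): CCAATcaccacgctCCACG
Pdia6 (chr12:17266491-17266509, plus strand): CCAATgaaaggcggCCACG
Ero1b (chr13:12565682-12565700, minus strand): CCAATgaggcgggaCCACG
Dnajc3 (chr14:118937827-118937845, plus strand): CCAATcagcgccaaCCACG
Creld2 (chr15:88819520-88819538, minus strand): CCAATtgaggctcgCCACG
Syvn1 (chr19:6046532-6046550, plus strand): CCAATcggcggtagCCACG
In Hsp90b1, which encodes GRP94, there were 2 matches on opposite strands. A second form, ERSE-II (ATTGG, any 1 base, CCACG), occurred for Herpud1 and Dnajb11 (2 of 33, against 0.0444% of all genes), and the XBP1 element UPRE (TGACGTGG) for Sec24d (1 of 33, against 0.714%). No member held overlapping matches. A match describes the letters of the window and is neither evidence of binding nor a cause of any change below.

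The whole 250 bases before the transcription start are shown for Hspa5, the chaperone BiP, and for Derl3, the member with the largest fold change below, with the ERSE in capitals. In Hspa5 the element lies at bases -65 to -47 from the start. In Derl3 it lies on the opposite strand of the gene, at bases -156 to -138, so its capitals read as the reverse complement.
Hspa5 (chr2:34771840-34772089, plus strand): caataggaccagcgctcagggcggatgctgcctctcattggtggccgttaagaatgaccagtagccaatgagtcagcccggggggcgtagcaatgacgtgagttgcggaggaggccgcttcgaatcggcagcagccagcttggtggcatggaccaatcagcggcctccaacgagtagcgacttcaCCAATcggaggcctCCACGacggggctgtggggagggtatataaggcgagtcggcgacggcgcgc
Derl3 (chr10:75893148-75893397, plus strand): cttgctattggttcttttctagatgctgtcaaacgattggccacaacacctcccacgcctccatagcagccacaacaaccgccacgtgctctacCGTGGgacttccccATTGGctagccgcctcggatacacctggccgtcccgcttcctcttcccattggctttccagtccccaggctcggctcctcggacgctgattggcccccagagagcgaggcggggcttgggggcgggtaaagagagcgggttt

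The first comparison sets the low-protein diet P7 against P21 in sham-operated mice. On P7, 35 of the 42 were lower than on P21 and 1 was higher (edgeR's quasi-likelihood test, Benjamini-Hochberg adjustment over all 16087 genes tested), where 13.4% of all genes were lower and 13% were higher. The median log2 fold change of the 42 was -1.1, against 0.05 over all genes tested. Every chaperone, co-chaperone, lectin, disulfide isomerase and small luminal protein of the list was lower, as were 6 of 8 degradation genes, 9 of 12 genes of the translocon and its processing enzymes and both coat proteins. With sham P21 libraries 1 and 2 left out, 31 were lower and none was higher, with a median of -0.83. In that fit 12% of all genes were lower and 11.9% were higher. When any single library was left out, 32 of the 36 calls held in every refit.

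Hspa5 is the HSP70 of the lumen, which binds unfolded chains and holds the stress sensors inactive. It had a lowest value of 391, a median of 662 and a highest value of 1066 CPM in sham P7 livers, against 763, 1673 and 3490 CPM in sham P21 livers. The ranges overlapped, with the lowest sham P21 library below the highest sham P7 library. Its log2 fold change was -1.38 ± 0.28 (SE, adjusted p = 0.000274), and -0.94 ± 0.28 without sham P21 libraries 1 and 2 (adjusted p = 0.013).

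Hyou1, a large HSP70-related protein that exchanges nucleotide on Hspa5, moved further. Its lowest, median and highest values were 105, 119 and 180 CPM in sham P7 livers, against 236, 547 and 1049 CPM in sham P21 livers, and the groups did not overlap. The log2 fold change was -2.21 ± 0.35 (adjusted p = 4.68e-06). Hsp90b1, the luminal HSP90, fell by 1.49 ± 0.30 on the log2 scale (adjusted p = 0.000242), and its fold change without sham P21 libraries 1 and 2 was -0.86 ± 0.29 (adjusted p = 0.0248). All 3 J-domain co-chaperones, which bring clients to Hspa5, fell by between 1.05 and 1.34 on the log2 scale. The largest of these was in Dnajb9, at 12.8, 26 and 34 CPM (lowest, median, highest) in sham P7 livers, against 42, 66 and 82.4 CPM in sham P21 livers. No sham P7 library reached the lowest sham P21 library for Dnajb9 (log2 fold change -1.34 ± 0.22, adjusted p = 1.24e-05).

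**Figure D1:**
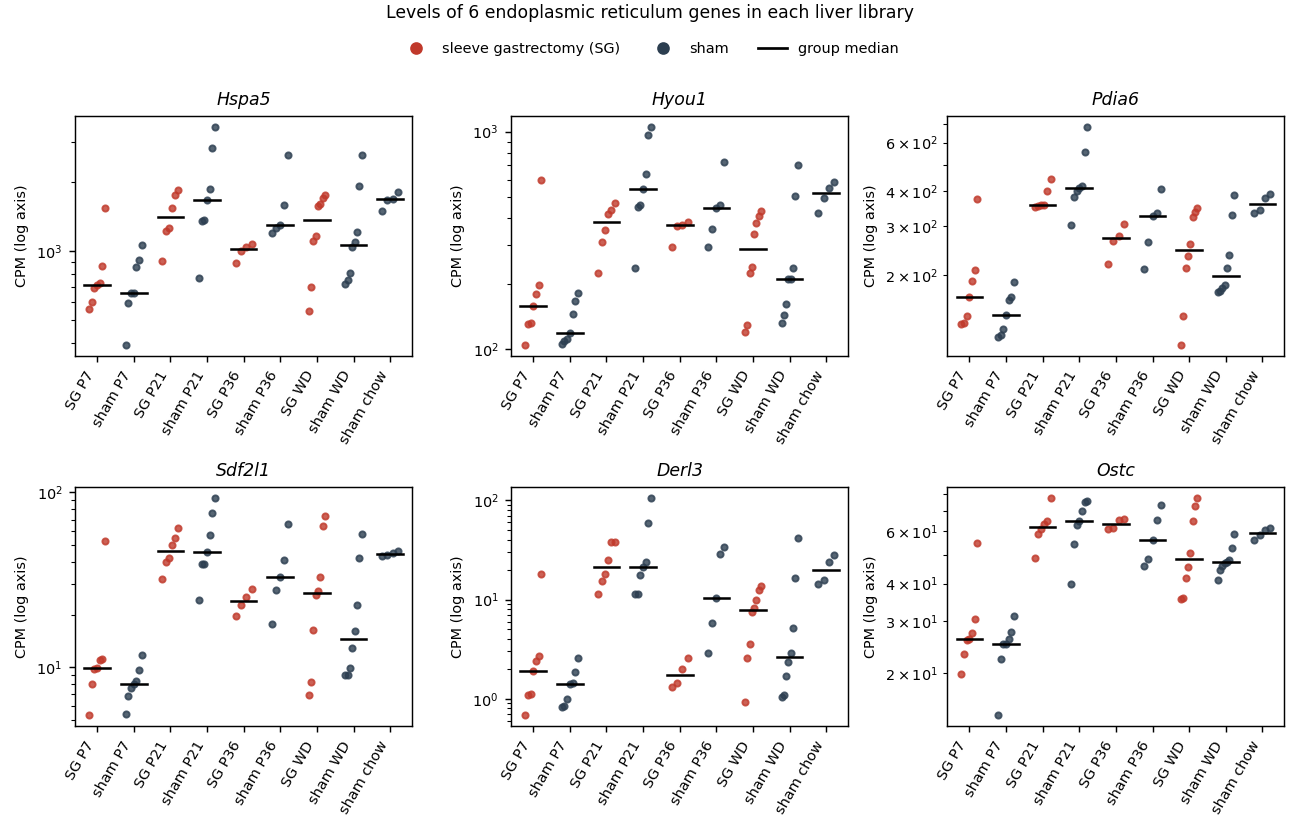
Levels of 6 genes in each library, in CPM on a log axis, by surgery and diet, with SG in red, sham in dark blue and a bar at each group median; points of a group are spread sideways for legibility. All 6 medians of sham P7 lie under those of sham P21, and 1 SG P7 library lies above the rest of its group in each panel, as for Hspa5 (1550 CPM).

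The lectins calnexin (Canx) and calreticulin (Calr), which retain glycoproteins during folding, were both lower. Canx had 109, 184 and 266 CPM (lowest, median, highest) in sham P7 livers, against 340, 425 and 478 CPM in sham P21 livers, without overlap, and fell by 1.05 ± 0.17 on the log2 scale (adjusted p = 5.78e-06). All 4 disulfide isomerases and the oxidase Ero1b, which reoxidises them, were lower, with log2 fold changes between -1.67 (Pdia4) and -0.69 (P4hb). For Pdia6, an isomerase that also acts on the stress sensors, the lowest, median and highest values were 119, 143 and 188 CPM in sham P7 livers, against 304, 411 and 683 CPM in sham P21 livers. The highest sham P7 library for Pdia6 was thus below the lowest sham P21 library (log2 fold change -1.62 ± 0.22, adjusted p = 1.91e-07).

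Among the luminal proteins the largest log2 fold change was that of a small one. Sdf2l1, a partner of Hspa5 and Dnajb11, had 5.42, 8.03 and 11.7 CPM (lowest, median, highest) in sham P7 livers, against 24.3, 45.3 and 93.5 CPM in sham P21 livers. The groups did not overlap, and the log2 fold change was -2.70 ± 0.45 (adjusted p = 1.21e-05). Creld2 (-2.09 ± 0.42, adjusted p = 0.000202) and Manf (-1.93 ± 0.33, adjusted p = 1.42e-05), which are retained in the lumen until stress or calcium loss releases them, were lower as well. The calcium-binding protein Nucb2 behaved differently, since its sham P21 median of 2.98 CPM lay close to the sham P7 median of 2.92 CPM and its highest sham P21 library was at 27.9 CPM. Its log2 fold change of -1.57 ± 0.44 (adjusted p = 0.00624) lost the call without sham P21 library 1, at -0.88, and was 0.09 ± 0.35 without sham P21 libraries 1 and 2 (adjusted p = 0.882).

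Of the degradation genes, Derl3 changed most of all 42. Derlin-3 belongs to a family of membrane proteins that pass misfolded proteins to the cytosol. It had 0.826, 1.4 and 2.59 CPM (lowest, median, highest) in sham P7 livers, against 11.3, 21.2 and 107 CPM in sham P21 livers. Every sham P7 library was under every sham P21 library, and the log2 fold change was -4.65 ± 0.76 (adjusted p = 8.63e-06). Of its relatives, Derl2 fell by 0.42 ± 0.12 on the log2 scale (adjusted p = 0.00853), and Derl1 was not called (0.04 ± 0.10, adjusted p = 0.818). The mannosidase-like Edem1 and Edem2, which mark glycoproteins for removal, and the ubiquitin ligase pair Sel1l and Syvn1 were lower, with log2 fold changes between -1.45 (Syvn1) and -0.70 (Edem2). For Syvn1 the value without sham P21 libraries 1 and 2 was -0.82 ± 0.33 (adjusted p = 0.062). The scaffold protein Herpud1 was not called (-0.03 ± 0.22, adjusted p = 0.943).

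The sensors are few. Ern1, which encodes IRE1, the sensor that splices Xbp1 mRNA, was the 1 member that was higher on P7. Its lowest, median and highest values were 52.3, 80.6 and 144 CPM in sham P7 livers, against 49.3, 65.4 and 80 CPM in sham P21 livers, and the ranges overlapped widely. The log2 fold change was 0.48 ± 0.18 (adjusted p = 0.0442), and the call was lost in 10 of 14 refits that left out 1 library, with values between 0.28 and 0.58. Atf6 was not called (-0.10 ± 0.15, adjusted p = 0.649). Xbp1 was lower, at 162, 187 and 242 CPM in sham P7 livers, against 209, 272 and 351 CPM in sham P21 livers (-0.50 ± 0.17 on the log2 scale, adjusted p = 0.0277). That call was lost in 4 of 14 refits and without sham P21 libraries 1 and 2 (-0.37 ± 0.19, adjusted p = 0.146). Counts per gene do not separate spliced from unspliced Xbp1.

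Among genes that bring proteins into the reticulum, Ostc, a subunit that couples the oligosaccharyltransferase to the translocon, had the lowest p. It was at 14.4, 25.1 and 31.1 CPM (lowest, median, highest) in sham P7 livers, against 39.8, 64.9 and 75.9 CPM in sham P21 livers, without overlap (log2 fold change -1.37 ± 0.17, adjusted p = 4.83e-08). Sec61a1, the pore of the translocon, fell by 1.34 ± 0.18 (adjusted p = 1.5e-07) and the signal peptidase subunit Spcs3 by 1.29 ± 0.17 (adjusted p = 1.03e-07) on the log2 scale. The small subunits split: Sec61g was lower (-0.69 ± 0.16, adjusted p = 0.00101), whereas Sec61b, Ssr4 and Spcs1 were not called, with log2 fold changes between -0.24 and -0.04. Sec11c, a catalytic subunit of the signal peptidase, was lower by a small amount (-0.32 ± 0.12, adjusted p = 0.0428), a call that was lost in 5 of 14 refits with 1 library left out.

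Both members of the COPII coat, which buds vesicles from the reticulum, were lower. Sec24d, which selects cargo, had 21.6, 27.5 and 43.5 CPM (lowest, median, highest) in sham P7 livers, against 61.1, 108 and 122 CPM in sham P21 livers. Its ranges did not meet, and the log2 fold change was -1.70 ± 0.22 (adjusted p = 7.01e-08). Sec23b, its partner in the inner coat, fell by 1.47 ± 0.20 (adjusted p = 2.55e-07).

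**Figure D2:**
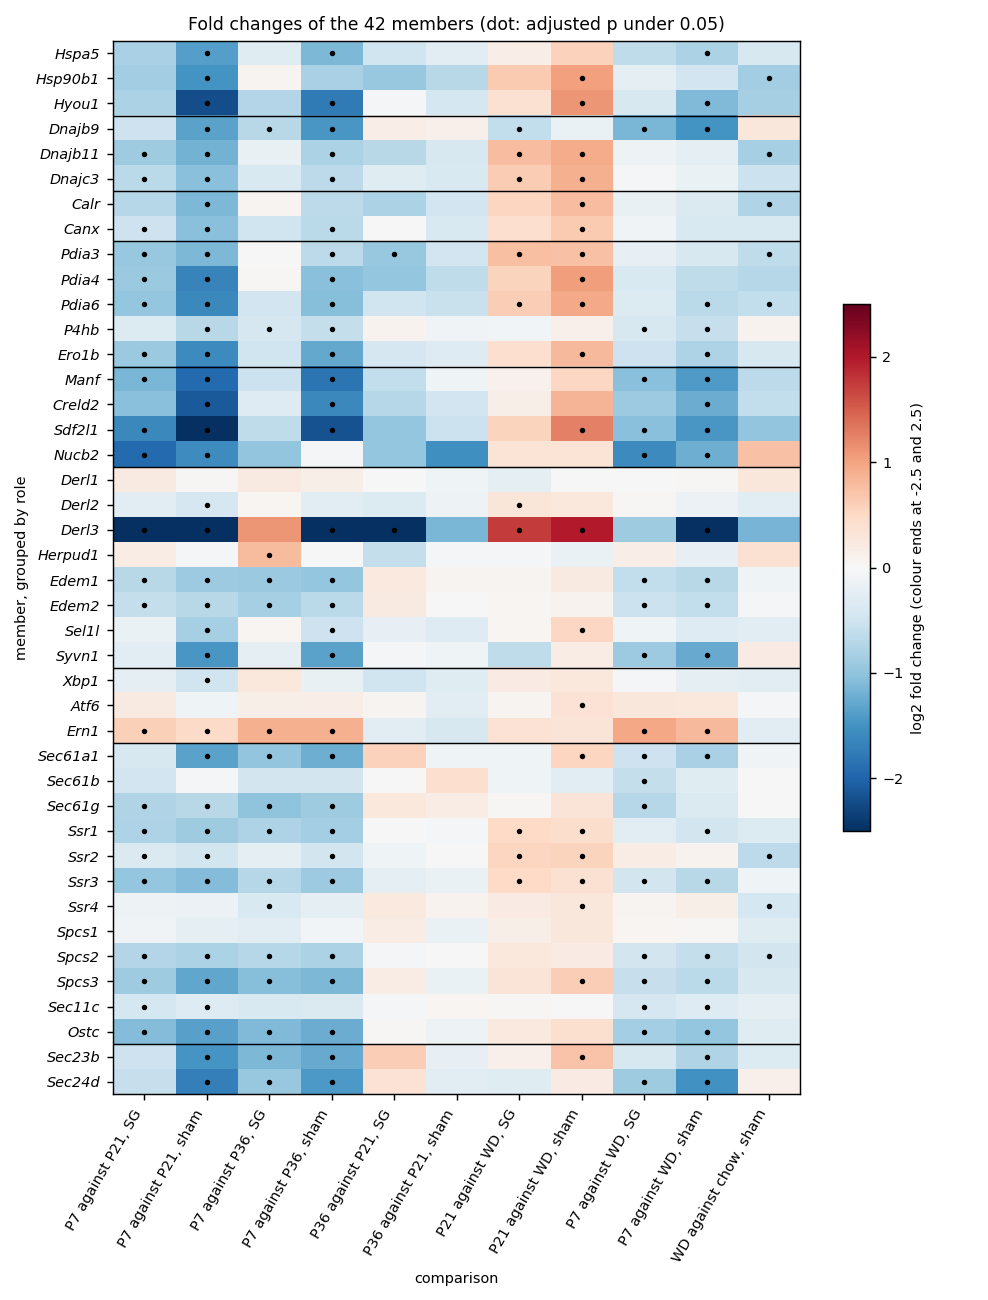
Log2 fold change of each of the 42 genes (rows, in blocks by role) in 11 comparisons (columns), red where the first-named group was higher and blue where it was lower, with a dot where the adjusted p was under 0.05; colour ends at -2.5 and 2.5, which Derl3 and Sdf2l1 exceed. The column of P7 against P21 in sham mice is blue in 35 called rows, while Ern1 is red in every column that sets P7 against another diet.

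The same diets were compared in SG mice. On P7, 21 of the 42 were lower than on P21 and 1, Ern1, was higher, where 4.2% of all genes were lower and 5.51% were higher (9.7% in all). The median log2 fold change of the 42 was -0.68, against -0.02 over all genes. Without SG P7 library 7, 31 were lower and 1 was higher, with a median of -0.79, where 4.82% of all genes were lower and 5.35% higher. With that library no HSP70 or HSP90 chaperone passed the threshold. Hspa5 had a lowest value of 563, a median of 713 and a highest value of 1550 CPM in SG P7 livers, against 906, 1409 and 1863 CPM in SG P21 livers, and its log2 fold change was -0.81 ± 0.29 (adjusted p = 0.0652). Without library 7, which held the value of 1550 CPM, it was -1.04 ± 0.29 (adjusted p = 0.0149). Hyou1 likewise had -0.78 ± 0.35 (adjusted p = 0.149) with the library and -1.29 ± 0.33 without it (adjusted p = 0.0063).

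The calls with the lowest adjusted p in SG mice were Ostc, Ssr3 and Ssr1. Ostc was at 19.9, 26.1 and 54.9 CPM (lowest, median, highest) in SG P7 livers, against 48.9, 62.2 and 77.8 CPM in SG P21 livers, and only library 7 reached the SG P21 range. It fell by 1.08 ± 0.18 on the log2 scale (adjusted p = 3.74e-05). Ssr3 (-0.96 ± 0.16, adjusted p = 5.26e-05) and Ssr1 (-0.78 ± 0.14, adjusted p = 0.000116) encode subunits of the translocon-associated TRAP complex. Derl3 was at 0.68, 1.91 and 18.2 CPM in SG P7 livers, against 11.5, 21.5 and 38.4 CPM in SG P21 livers. Its log2 fold change was -2.63 ± 0.70 (adjusted p = 0.012), and -3.88 ± 0.73 without library 7 (adjusted p = 0.000221). Ern1 was higher by 0.60 ± 0.19 (adjusted p = 0.0376), a call lost in 6 of 13 refits that left out 1 library. Of the 22 calls, 14 held in every such refit, and leaving out SG P7 library 1 gave the fewest, 14.

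The ATF4 arm of the stress response is not among the 42 and was measured beside them. Trib3, an ATF4 target that curbs insulin signalling, had 52.3, 72.8 and 130 CPM (lowest, median, highest) in sham P7 livers, against 1.84, 3.47 and 6.26 CPM in sham P21 livers. In SG mice it had 4.17, 54.4 and 119 CPM in P7 livers, against 2.43, 3.57 and 3.67 CPM in P21 livers. Of 9 genes of the PERK and ATF4 arm, 6 were higher and 1 was lower in sham mice on P7 against P21, and 5 were higher and none was lower in SG mice. Of all genes, 13% were higher in the sham comparison and 5.51% in the SG one. The counts were the same without sham P21 libraries 1 and 2 in sham mice and without SG P7 library 7 in SG mice. The lower one in sham mice was Eif2ak3, the sensor PERK itself (-0.72, adjusted p = 0.00066). The library with the lowest Trib3 in SG P7 livers was library 7, which was the highest of the group for 31 of the 42 genes and the lowest for 2.

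**Figure D3:**
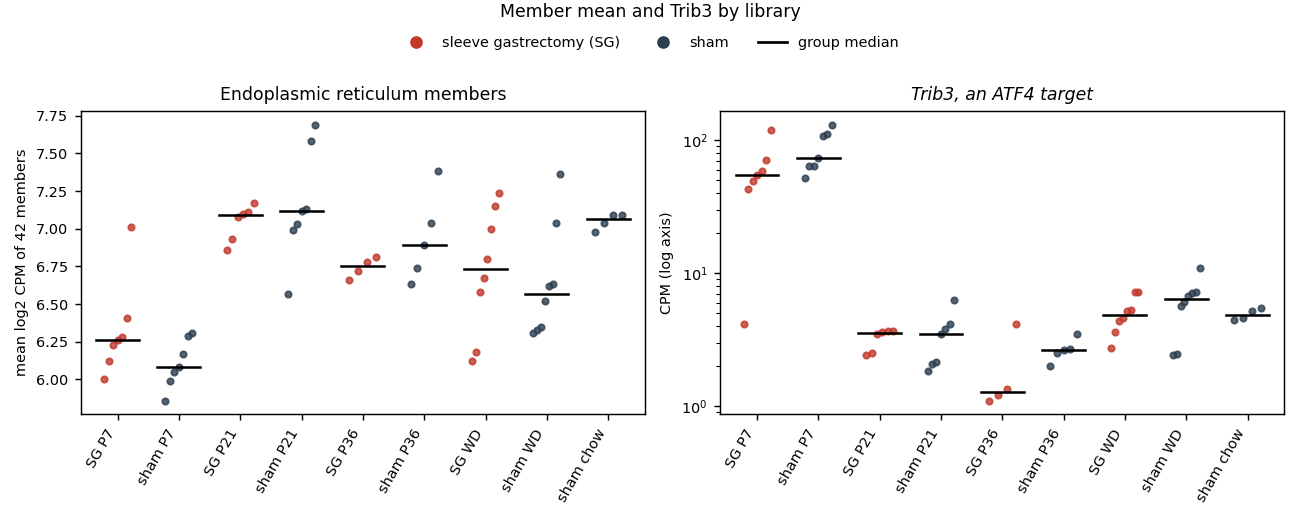
Left, mean log2 CPM of the 42 genes in each library; right, Trib3 in CPM on a log axis; SG in red, sham in dark blue, bars at group medians. Sham P7 libraries lie between 5.86 and 6.31 on the left and between 52.3 and 130 CPM on the right, and SG P7 library 7 (7.01) lies within the range of the P21 libraries on both sides.

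P7 was also set against P36, a comparison that uses the same P7 libraries and so is not independent of the one against P21. In sham mice 29 of the 42 were lower on P7 and 1, Ern1, was higher, where 8.19% of all genes were lower and 7.48% were higher, and the median log2 fold change was -0.79 against 0.03 over all genes. In SG mice 14 were lower and 2 were higher, where 8.65% of all genes were lower and 10.2% were higher, with a median of -0.4 against -0.01. Without SG P7 library 7 these were 20 lower and 2 higher, with a median of -0.55, where 10.4% of all genes were lower and 11.3% higher.

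The genes are taken by role. In SG mice the entry and export machinery was lower on P7: 8 of the 12 genes of the translocon, signal peptidase and oligosaccharyltransferase (9 without library 7), and both coat proteins. Ostc was at 19.9, 26.1 and 54.9 CPM (lowest, median, highest) in SG P7 livers, against 61.1, 66.1, 65.3 and 61.3 CPM in the 4 SG P36 livers, without overlap (log2 fold change -1.10 ± 0.19, adjusted p = 3.97e-05). Spcs3 (-1.07 ± 0.19, adjusted p = 4.75e-05) and Sec61g (-1.01 ± 0.18, adjusted p = 5.97e-05) had the next lowest adjusted p.

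Of the 3 HSP70 and HSP90 chaperones, 2 lectins and 4 small luminal proteins, none was called in SG mice. Hspa5 had 563, 713 and 1550 CPM in SG P7 livers, against 1082, 1047, 888 and 1002 CPM in SG P36 livers (-0.30 ± 0.32 on the log2 scale, adjusted p = 0.565). Pdia4 (0.03 ± 0.33, adjusted p = 0.959) and Hsp90b1 (0.08 ± 0.35, adjusted p = 0.911) had fold changes near 0. Without SG P7 library 7, Hyou1 (-1.24 ± 0.35, adjusted p = 0.00878), Sdf2l1 (-1.38 ± 0.45, adjusted p = 0.0221) and Manf (-0.98 ± 0.34, adjusted p = 0.0316) were lower, whereas Hspa5 (-0.53 ± 0.32, adjusted p = 0.243) was not called.

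Herpud1 was higher on P7 than on P36 in SG mice (0.79 ± 0.27, adjusted p = 0.0328). It was at 291, 349 and 453 CPM (lowest, median, highest) in SG P7 livers, against 433, 209, 65.7 and 96.3 CPM in SG P36 livers. The SG P36 libraries were far apart, and the call was lost in 6 of 11 refits that left out 1 library, with values between 0.5 and 1.49. Ern1 was higher in both surgeries, by 0.89 ± 0.22 in SG mice (adjusted p = 0.00329) and by 0.89 ± 0.21 in sham mice (adjusted p = 0.0017).

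In sham mice the chaperone side was lower too, with 2 of 3 HSP70 and HSP90 chaperones, 3 of 3 co-chaperones, 5 of 5 isomerases and oxidase, and 3 of 4 small luminal proteins. Hspa5 was at 391, 662 and 1066 CPM (lowest, median, highest) in sham P7 livers, against 1204, 2641, 1260, 1304 and 1589 CPM in sham P36 livers. The groups did not overlap, and the log2 fold change was -1.12 ± 0.30 (adjusted p = 0.00714). Derl3 was at 0.826, 1.4 and 2.59 CPM in sham P7 livers, against 2.91, 33.6, 5.82, 28.8 and 10.4 CPM in sham P36 livers (-3.51 ± 0.77 on the log2 scale, adjusted p = 0.000794).

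The difference between surgeries in this diet effect was tested as an interaction, a contrast added after the values were seen. None of the 42 was called, 10 had an unadjusted p under 0.05, and 0.149% of all genes were called. DESeq2 called 1 of the 42. Positive values mean a higher log2 fold change of P7 against P36 in SG than in sham mice, be it a smaller fall or a rise. The median of the interaction was 0.88 for the HSP70 and HSP90 chaperones, 1.29 for the small luminal proteins and 0.07 for the translocon group, on the log2 scale. These medians were 0.59, 0.82 and -0.05 without SG P7 library 7, and that of all 42 genes was 0.15 against 0.27 with it. The largest was in Derl3 (4.62 ± 1.18, adjusted p = 0.0749), which without SG P7 library 7 was 3.37 ± 1.09 (adjusted p = 0.226). Derl3 was at 1.45, 2, 1.33 and 2.57 CPM in SG P36 livers, against 2.91, 33.6, 5.82, 28.8 and 10.4 CPM in sham P36 livers. For SG against sham on P36, the medians of the chaperones, small luminal proteins and translocon group were -0.57, -0.61 and 0.14. On P7 they were 0.31, 0.62 and 0.19.

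**Figure D4:**
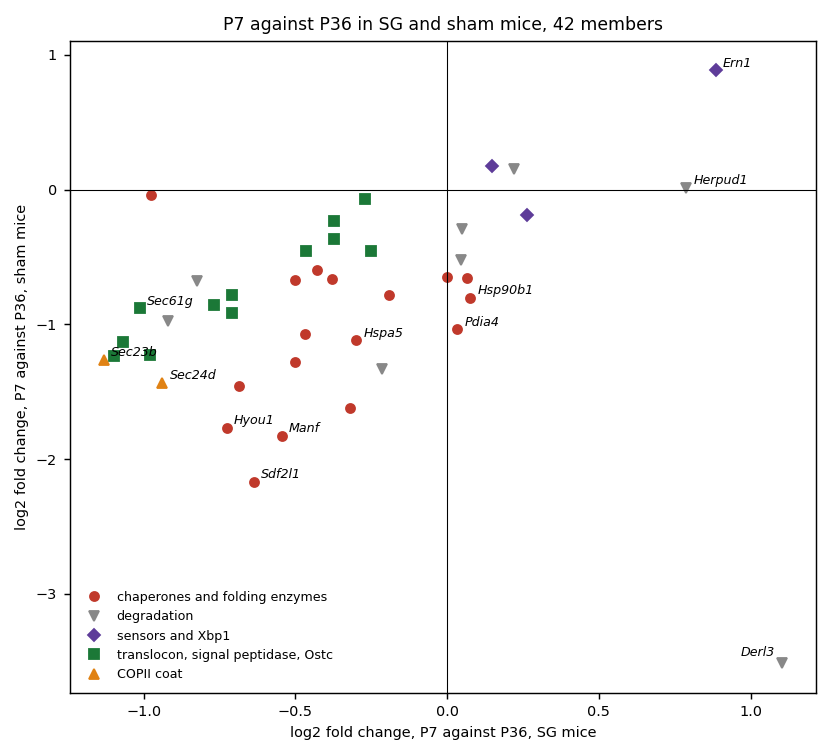
Log2 fold change of P7 against P36 for each of the 42 genes in SG mice (x axis) and in sham mice (y axis), with a symbol for each group of roles. The translocon genes and the coat proteins lie left of 0 on the x axis, while Hsp90b1 and Pdia4 lie near 0 on the x axis and under 0 on the y axis.

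Between the higher protein diets few members were called in the fit of all groups. For P36 against P21 in sham mice, 0 of the 42 were called, 6 had an unadjusted p under 0.05, DESeq2 called 0, and 0.087% of all genes passed (0.0684% higher, 0.0186% lower). In SG mice 2 were lower on P36 and none was higher, where 4.01% of all genes were lower and 3.68% were higher. The share of the 2 among the members was thus close to that of all genes. One was Derl3, at 1.45, 2, 1.33 and 2.57 CPM in the SG P36 livers, against 11.5, 21.5 and 38.4 CPM (lowest, median, highest) in SG P21 livers. The groups were apart (log2 fold change -3.73 ± 0.94, adjusted p = 0.0088). The other was Pdia3, the isomerase that works with the lectins, at 408, 512, 434 and 539 CPM in SG P36 livers, against 855, 916 and 993 CPM in SG P21 livers. All SG P36 values were under all SG P21 values (-0.96 ± 0.24, adjusted p = 0.00987). A fit of these 2 groups alone called 10 members, 8 lower and 2 higher on P36. In that fit 451 of all 14495 genes tested were lower and 547 were higher.

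P21 was set against WD, the diet that all of these mice had eaten before surgery. In sham mice 21 of the 42 were higher on P21 than on WD and none was lower, where 14.4% of all genes were higher and 17.8% lower, and the median log2 fold change was 0.42 against 0 over all genes. Without sham P21 libraries 1 and 2, 9 were higher and 1, Nucb2, was lower, where 11% of all genes were higher and 14.6% lower. The 3 lowest adjusted p were those of Ssr2, Dnajc3 and Pdia6. Ssr2, of the TRAP complex, was at 83.6, 102 and 134 CPM (lowest, median, highest) in sham P21 livers, against 61, 71.3 and 96.2 CPM in sham WD livers, with overlapping ranges (0.55 ± 0.11, adjusted p = 0.000175). Dnajc3, which also restrains the kinase PERK, was at 200, 321 and 496 CPM in sham P21 livers, against 131, 158 and 322 CPM in sham WD livers (0.88 ± 0.19, adjusted p = 0.000271). Pdia6 was at 304, 411 and 683 CPM in sham P21 livers, against 174, 198 and 389 CPM in sham WD livers (0.94 ± 0.20, adjusted p = 0.000379). These 3 calls held without sham P21 libraries 1 and 2, at 0.41 ± 0.12 for Ssr2 (adjusted p = 0.00803), 0.65 ± 0.20 for Dnajc3 (adjusted p = 0.0117) and 0.71 ± 0.21 for Pdia6 (adjusted p = 0.0123). Those of Hsp90b1 (0.39 ± 0.28, adjusted p = 0.319) and Hyou1 (0.69 ± 0.34, adjusted p = 0.131) did not.

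In SG mice 9 were higher on P21 than on WD, where 12.4% of all genes were higher, and 1 was lower, where 17.1% of all genes were lower. The higher ones included Ssr2 (0.54 ± 0.12, adjusted p = 0.000575), Pdia3 (0.76 ± 0.20, adjusted p = 0.00347) and Ssr1 (0.49 ± 0.13, adjusted p = 0.00415). The lower one was Dnajb9, at 34.9, 47.4 and 58.6 CPM (lowest, median, highest) in SG P21 livers, against 45.4, 71.2 and 104 CPM in SG WD livers (-0.62 ± 0.23, adjusted p = 0.0337). That call was lost in 5 of 14 refits that left out 1 library.

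Markers of other cell types were also called for P21 against WD in sham mice, where 17.8% of all genes were lower and 14.4% higher. Of 7 macrophage markers 5 were lower, with summed levels between 161 and 356 CPM in sham P21 livers and between 290 and 1742 CPM in sham WD livers. Of 8 hepatocyte markers 4 were higher, with summed levels between 70640 and 88580 CPM in sham P21 livers and between 46950 and 77200 CPM in sham WD livers. Of 6 stellate cell markers 4 were lower (216 to 347 CPM summed in sham P21 livers, 199 to 882 CPM in sham WD livers), and of 5 bile duct markers 3 were lower (39.9 to 64.9 CPM summed in sham P21 livers, 33.9 to 586 CPM in sham WD livers). Leaving out sham P21 libraries 1 and 2 gave 5, 4, 3 and 2 for these 4 lists, where 14.6% of all genes were lower and 11% higher. Their part in the change of the 42 genes was not tested.

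P7 against WD, which again uses the P7 libraries, gave 23 lower and 1 higher in sham mice, where 18.4% of all genes were lower and 17.3% higher. The median log2 fold change was -0.58, against -0.01 over all genes. Sec24d (-1.51 ± 0.21, adjusted p = 2.38e-07), Dnajb9 (-1.50 ± 0.22, adjusted p = 5.66e-07) and Ostc (-0.97 ± 0.17, adjusted p = 9.37e-06) led. Dnajb9 was at 12.8, 26 and 34 CPM in sham P7 livers, against 44.4, 65.8 and 99 CPM in sham WD livers, with no overlap. In SG mice 17 were lower and 1 was higher, where 19.7% of all genes were lower and 14.2% higher. Without SG P7 library 7 these were 25 and 1, where 20.3% of all genes were lower and 14.5% higher. Without SG WD libraries 5 and 7 they were 7 and 2, where 16.6% of all genes were lower and 15% higher, so that the share of members called lower was then close to that of all genes. Ern1 was the member higher on P7 in both surgeries, by 0.96 ± 0.18 in SG mice (adjusted p = 3.92e-05) and 0.81 ± 0.18 in sham mice (adjusted p = 0.000342).

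Sham livers on WD, P7 and P21 were each set against sham chow livers, which the 3 comparisons share. For WD against chow, 8 of the 42 were lower and none was higher, where 14.5% of all genes were lower and 17.1% higher. The share of members called lower was thus not far from that of all genes. The lowest adjusted p was that of Ssr2, at 61, 71.3 and 96.2 CPM (lowest, median, highest) in sham WD livers, against 107, 112, 123 and 115 CPM in sham chow livers, without overlap (-0.66 ± 0.13, adjusted p = 0.000116). Ssr4 (-0.45 ± 0.13, adjusted p = 0.00638) and Dnajb11 (-0.84 ± 0.25, adjusted p = 0.00745) followed. These 3 held in every refit that left out 1 library, and the other 5 did not; the count was 15 without sham WD library 3 and 3 without sham chow library 5. Macrophage markers were higher on WD for 6 of 7 (290 to 1742 CPM summed in sham WD livers, 122 to 187 CPM in sham chow livers), and hepatocyte markers were lower for 5 of 8 (46950 to 77200 CPM summed in sham WD livers, 99760 to 108100 CPM in sham chow livers), and their part in the result was not tested.

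For P7 against chow, 31 of the 42 were lower and none was higher, where 6.37% of all genes were lower and 6.11% higher. The median was -0.84, against 0.03 over all genes. Ostc was at 14.4, 25.1 and 31.1 CPM (lowest, median, highest) in sham P7 livers, against 58.4, 60.3, 61.7 and 56.2 CPM in sham chow livers (-1.27 ± 0.19, adjusted p = 6.08e-06), and Sdf2l1 at 5.42, 8.03 and 11.7 CPM in sham P7 livers, against 43.8, 46.3, 44.9 and 43.1 CPM in sham chow livers (-2.44 ± 0.49, adjusted p = 0.000443). The 4 sham chow libraries lay close together and above all sham P7 libraries for both genes. For P21 against chow, 0 of the 42 were called, 3 had an unadjusted p under 0.05, DESeq2 called 0, and 1.42% of all genes were called. Any difference in the earlier diet of the chow mice cannot be told apart from the diet itself.

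Surgery was compared within each diet, and few members were called. For SG against sham on WD, 0 of the 42 were called, 1 had an unadjusted p under 0.05 and 2.34% of all genes passed (1.88% higher, 0.46% lower). On P36, 0 were called, 4 had an unadjusted p under 0.05 and 2.22% of all genes were called (1.22% in the higher and 1% in the lower direction), and DESeq2 and limma-voom each called 1. On P7, 0 were called, as were 0% of all genes. There 37 of the 42 log2 fold changes were positive, with a median of 0.24 against 0 over all genes, and 7 had an unadjusted p under 0.05. The median was 0.09 and 36 were positive without SG P7 library 7. DESeq2 called none of the 42 on WD or P7. A p that misses the threshold does not show that the groups did not differ.

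On P21, 3 of the 42 were lower in SG mice, where 4.65% of all genes were lower and 3.87% higher (8.52% in all). The share of members called lower was thus not far from that of all genes. The 3 were Sec24d, Sec61a1 and Sec23b. Sec24d was at 42.1, 59 and 72.7 CPM (lowest, median, highest) in SG P21 livers, against 61.1, 108 and 122 CPM in sham P21 livers, with overlapping ranges (-0.76 ± 0.22, adjusted p = 0.0257). Sec61a1 was at 136, 164 and 193 CPM in SG P21 livers, against 176, 232 and 312 CPM in sham P21 livers (-0.61 ± 0.18, adjusted p = 0.03). Sec23b fell by 0.68 ± 0.20 on the log2 scale (adjusted p = 0.0301). None of the 3 held in every refit that left out 1 library. Sec24d lost its call without SG P21 library 7 (-0.71), Sec23b in 4 and Sec61a1 in 5 of 13 refits. The count was 0 without SG P21 library 7, 1 without sham P21 library 1 or 2 or SG P21 library 4, and 6 without sham P21 library 6. Without sham P21 libraries 1 and 2 none of the 3 was called, and Nucb2 was higher in SG mice (1.95 ± 0.38, adjusted p = 0.00236). In the authors' deposited table, adjusted p-values under 0.05 for SG against sham were listed for 1 of the 42 on P36, 3 on P21 and 0 on P7.

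Whether the effect of surgery differed between P7 and P21 was tested by an interaction. Of the 42, 2 were called, where 1.03% of all genes were called in that direction. They were Sec24d (1.13 ± 0.31, adjusted p = 0.0475) and Sec61a1 (0.93 ± 0.25, adjusted p = 0.0466). Their effects of SG against sham were 0.37 ± 0.21 on P7 and -0.76 ± 0.22 on P21 for Sec24d, and 0.33 ± 0.17 on P7 and -0.61 ± 0.18 on P21 for Sec61a1. Neither was called without SG P7 library 7 (0.80 ± 0.27, adjusted p = 0.173 for Sec24d and 0.71 ± 0.23, adjusted p = 0.155 for Sec61a1). Over refits that left out 1 library, between 0 and 4 members were called. No member was called in the interactions of surgery with P36 against P21 (3 at an unadjusted p under 0.05, and 0.23% of all genes called) or for P21 against WD (3 at an unadjusted p under 0.05, and 0.124% of all genes called).

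Further genes of the secretory pathway, taken from lists of the same processes, were compared in sham mice on P7 against P21, where 13.4% of all genes were lower and 13% were higher. These lists too were chosen with earlier results of these data known, so their counts are descriptions. Of 31 genes of transport between the reticulum and the Golgi, 22 were lower and none was higher, led by the cargo receptors Surf4 (-0.89, adjusted p = 7e-08) and Lman2 (-1.11, adjusted p = 7.9e-08). Of 13 genes of signal recognition and translocation, 10 were lower and 1 was higher, with Srprb (-1.13, adjusted p = 3e-06) and Tram1 (-0.93, adjusted p = 6.8e-06) in the lead. Of 19 genes of the oligosaccharyltransferase and glycan processing 12 were lower, among them Magt1 (-0.99, adjusted p = 3.7e-07) and Uggt1 (-1.22, adjusted p = 1e-06), the sensor of glycoprotein folding. Other isomerases were lower for 9 and higher for 1 of 17, and other degradation genes lower for 6 and higher for 1 of 18. When sham P21 libraries 1 and 2 were left out, so that 12% of all genes were lower, the lower ones were 20 of 31 for transport, 6 of 13 for translocation, 10 of 19 for glycans, 6 of 17 for isomerases and 4 of 18 for degradation.

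In SG mice on P7 against P21, 6 of 31 transport genes, 5 of 13 translocation genes, 6 of 19 glycan genes (and 1 higher), 7 of 17 isomerases and 1 of 18 degradation genes were lower, where 4.2% of all genes were lower and 5.51% higher. The counts were 11, 7, 8 (and 1 higher), 7 and 1 without SG P7 library 7, where 4.82% of all genes were lower. Of 19 secreted liver proteins tested, 5 were lower and 1 was higher on P7 against P21 in sham mice, with Plg, plasminogen (-0.56, adjusted p = 0.0032), lower and Rbp4, a retinol carrier (0.47, adjusted p = 0.01), higher, and none was called in SG mice. Of all genes 13.4% were lower and 13% higher in that sham comparison. Without sham P21 libraries 1 and 2, 2 of the 19 were lower and 1 was higher, where 12% of all genes were lower and 11.9% higher. For P21 against WD in sham mice 9 of the 19 were higher, among them Apoh (0.56, adjusted p = 0.001), as were 10 of 19 glycan genes and 9 of 31 transport genes, where 14.4% of all genes were higher. The counts were 4, 3 and 6 without sham P21 libraries 1 and 2, where 11% of all genes were higher.

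Plasma cells carry a very large reticulum. Of their 7 markers tested (of 8 listed), 2 were lower on P7 against P21 in sham mice, with summed levels between 27.4 and 254 CPM in sham P7 livers and between 22.6 and 716 CPM in sham P21 livers. Of all genes 13.4% were lower and 13% higher. In sham P21 libraries 1 to 7, in that order, the 8 markers summed to 40.9, 35.6, 716, 32.8, 22.6, 22.9 and 491 CPM. The highest sums were in libraries 3 and 7, and the highest means of the 42 genes in libraries 1 and 2. Without libraries 1 and 2, 4 of the 7 markers were lower on P7, where 12% of all genes were lower. Of 8 hepatocyte markers 2 were higher on P7 in the same comparison, with summed levels between 80370 and 106600 CPM in sham P7 livers and between 70640 and 88580 CPM in sham P21 livers, and 1 was higher without libraries 1 and 2. The part of either cell type in the result was not tested. In SG mice none of the 7 was called. For P21 against WD in sham mice 4 of the 7 plasma cell markers were higher, where 14.4% of all genes were higher. Summed levels lay between 22.6 and 716 CPM in sham P21 livers and between 23.4 and 193 CPM in sham WD livers. The count was 4 without sham P21 libraries 1 and 2 too, where 11% of all genes were higher. The part of these markers in the result was not tested.

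The 42 genes also varied together from mouse to mouse. Over the 56 libraries, the Pearson correlation of a member's log2 CPM with the mean of the other 41 was at least 0.8 for 24 members, with a median of 0.82. It was highest for Sdf2l1 (0.97), Pdia6 (0.96) and Hyou1 (0.96), and under 0 for Ern1 (-0.16), Derl1 (-0.16) and Herpud1 (-0.04). After the mean of each group was taken out it was at least 0.8 for 19 members and under 0 for none, with a median of 0.78 and 0.95 for Hspa5. These are descriptions, since the points share libraries, scaling and cell make-up. The spread is visible in single libraries: sham WD library 3 was the highest of its 8 for 33 members and sham P36 library 2 the highest of its 5 for 31.

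The mean log2 CPM of the 42 genes was 6.33 ± 0.33 in SG P7 (SD, n = 7), 6.11 ± 0.16 in sham P7 (n = 7), 7.04 ± 0.12 in SG P21 (n = 6), 7.16 ± 0.38 in sham P21 (n = 7), 6.74 ± 0.07 in SG P36 (n = 4), 6.94 ± 0.29 in sham P36 (n = 5), 6.72 ± 0.42 in SG WD (n = 8), 6.64 ± 0.37 in sham WD (n = 8) and 7.05 ± 0.05 in sham chow (n = 4). Both P7 groups had the lowest means. The SD was largest in SG WD and smallest in sham chow.

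The genes with an ERSE in their window were set beside the other 23 with a window. For P7 against P21 in sham mice, where 13.4% of all genes were lower, all 10 were lower, with a median log2 fold change of -1.47, and 18 of the 23 without the element were lower and 1 was higher, with a median of -0.84. With sham P21 libraries 1 and 2 left out, 9 of the 10 (median -0.98) and 16 of the 23 (median -0.66) were lower, where 12% of all genes were lower. For P21 against WD in sham mice 7 of the 10 were higher (median 0.83), as were 9 of the 23 (median 0.29), where 14.4% of all genes were higher. Leaving out sham P21 libraries 1 and 2 gave 4 of 10 (median 0.51) and 3 of 23 (median 0.23), where 11% were higher. For P7 against P36 in SG mice none of the 10 was lower (median -0.31), whereas 11 of the 23 were lower and 2 were higher (median -0.46), where 8.65% of all genes were lower. With SG P7 library 7 left out, the lower ones were 2 of 10 (median -0.55) and 12 of 23 (median -0.53), so the medians then lay close together. Of all genes 10.4% were lower in that fit. No test was made of the difference between the 2 sets, which also differ in role, as none of the 7 genes of the translocon group that have a window (of 12) and neither coat protein held an ERSE.

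**Figure D5:**
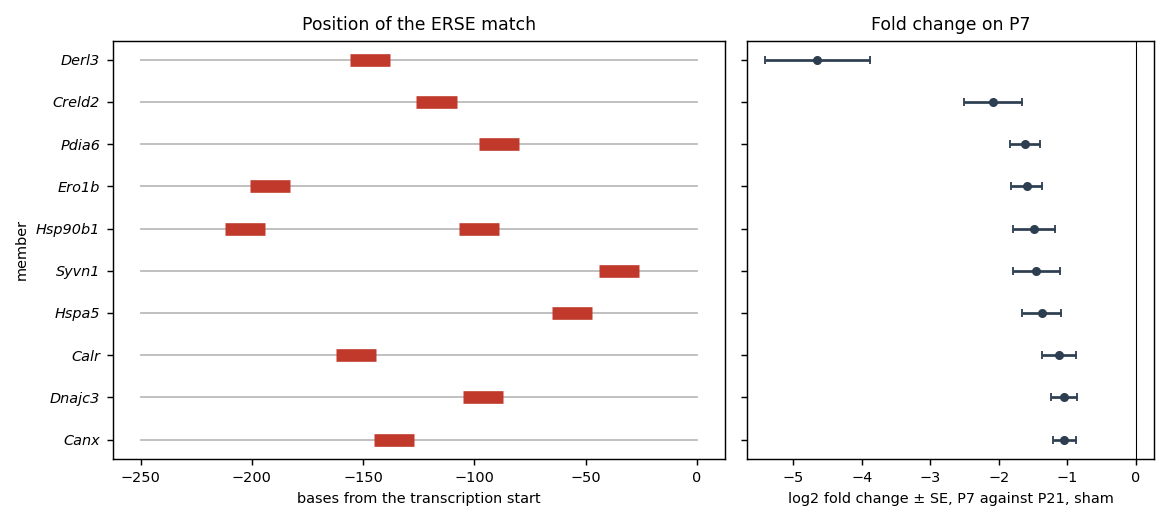
Left, position of the ERSE match in the 250 bases before the transcription start of 10 genes, in bases from the start; right, log2 fold change ± SE of the same gene for P7 against P21 in sham mice. Each of the 10 lies left of 0, between -4.65 for Derl3 and -1.05 for Canx.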

How the data were processed

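Poly(A) RNA of whole mouse liver was sequenced as stranded pairs, per the labels' protocols. The authors deposited estimated counts per gene (RSEM, per the file headers), of which 3.34% of values were not whole; they were rounded. Genome build GRCm39 and R 4.4.1 with edgeR and limma are named in the submitters' processing notes, with no role given. Of 62 labelled samples 57 had a column, and the other 5 were not analysed here. Symbols came from the authors' deposited table (15523 identifiers) or GENCODE M21 (36760), and 4601 identifiers had none.

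Counts were tested with edgeR 4.0.16 in R 4.3.3 by the quasi-likelihood test, with TMM scaling, filterByExpr (16087 genes kept) and 1 coefficient for each of 9 groups over 56 libraries (47 residual degrees of freedom, biological coefficient of variation 28.2%). A prior count of 2 was set for the log2 CPM values only, and the tested fold changes used the package default. The lone SG chow library was left out. Called means an adjusted p (Benjamini-Hochberg over all genes) under 0.05. Each SE was derived from the test, as the absolute log2 fold change divided by the square root of its F statistic. There were 17 comparisons and 4 interactions. Alternatives were DESeq2 1.42.0, limma-voom 3.58.1, RLE scaling, no filter on low counts, the compared groups alone, and leaving out libraries. The code was tested on simulated data. The p-values measure the spread between these libraries, and counts carry no molecular identifiers.

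The authors' deposited table also holds log2 fold changes with p-values and an F score for SG against sham on 3 diets, with no stated direction. Its fold changes correlated over 15523 genes with those computed here as SG minus sham (Pearson r of 0.93 on P36, 0.91 on P21 and 0.88 on P7). Symbols and counts of its adjusted p-values were taken from it.

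The 42 genes and the other lists were chosen with earlier results of these data known. Levels in full were given for Hspa5 and, in each group of roles, the gene with the lowest p for P7 against P21 in sham mice, with the 3 lowest adjusted p and the exceptions in each comparison. A few further members, and levels shown for them, were chosen after their values were seen. Promoter windows were those of RefSeq on GRCm38.p6 and were matched by symbol, without use of coordinates from the counts.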

Additional observations from a re-analysis of the deposited data

Results flagged for a closer look

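For 11 quantities (10 genes and the mean log2 CPM of the 42), the highest or lowest library of each of 9 groups was examined for a gap to its nearest neighbour that is large beside the range of the group. Of 99 such groups of values 14 were marked, where chance marks about 1 in 20 of independent groups. The 99 are not independent, since the 11 quantities share libraries and vary together, so that rate is no yardstick for the 14.

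SG P7 library 7 accounts for most of them, each time as the highest of its group. It held 1550 CPM of Hspa5, 598.7 CPM of Hyou1, 375.0 CPM of Pdia6, 88.23 CPM of Sec24d, 59.63 CPM of Dnajb9, 54.86 CPM of Ostc, 53.03 CPM of Sdf2l1 and 18.2 CPM of Derl3, and its mean log2 CPM over the 42 genes was 7.01. In the same library Trib3 was at 4.17 CPM and Fgf21 at 0.688 CPM, while the other 6 SG P7 libraries had between 43.2 and 119 CPM of Trib3 and between 30.4 and 84.8 CPM of Fgf21.

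Sham P36 library 2 was marked as high for Hspa5 (2641 CPM) and Sec24d (120.7 CPM). Sham WD library 3 was high for Derl3 (42.06 CPM), SG WD library 8 was high for Sec24d (115.0 CPM), and SG P36 library 1 was low for Hyou1 (294.8 CPM).

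The effect of surgery differed between P7 and P21 by the interaction test for Sec24d (1.131 on the log2 scale) and Sec61a1 (0.934), and neither difference was called without SG P7 library 7.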

How the results depend on the processing

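Of 223 results on single genes, 222 kept their direction and call under DESeq2, 222 under RLE scaling, 213 under limma-voom, 203 with no filter on low counts (30127 genes) and 199 when the compared groups were fitted alone. Refits with 1 library left out gave 2961 values for these results, several results to each refit. Of these values 2706 kept the call and none changed sign. Without sham P21 libraries 1 and 2, 39 of 62 kept it, and Nucb2 for P7 against P21 in sham mice changed sign (0.093). Without SG WD libraries 5 and 7, 17 of 28 kept the call, and without SG P7 library 7, 56 of 58 kept it. Settings that leave out the 3 sets of libraries were chosen after seeing the data.

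Counts of members called moved as follows. For SG against sham, P36 gave 1 with DESeq2 and 1 with limma-voom, and P21 gave 5 with the groups alone and 1 without sham P21 libraries 1 and 2. P36 against P21 in SG mice gave 10 with the groups alone (8 lower and 2 higher, where 451 of 14495 genes were lower and 547 higher). P21 against WD in sham mice gave 10 without sham P21 libraries 1 and 2. P7 against WD in SG mice gave 9 without SG WD libraries 5 and 7 and 9 with the groups alone. WD against chow gave 5 with no filter and 13 with limma-voom. The interaction of surgery with P7 against P21 gave 0 with no filter, limma-voom, the groups alone or no SG P7 library 7, and 1 without sham P21 libraries 1 and 2. That with P7 against P36 gave 1 with DESeq2. The number of all genes called differed too in each of these settings. The cause was not tested.

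With 1 library left out, counts ran from 0 to 1 for SG against sham on P36, 0 to 6 on P21, 14 to 32 for P7 against P21 in SG mice, 3 to 15 for WD against chow, 0 to 4 for the interaction with P7 against P21 and 0 to 1 for that with P7 against P36. No paired analysis was possible because each library carries its own animal's number and the labels do not tie mice to cages.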

Other observations

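Among genes outside the 42 whose mean level was at least 3 on the log2 CPM scale, the 10 whose log2 CPM followed the mean of the 42 most closely over the 56 libraries were Slc35b1 (Pearson r = 0.917), Ddost (0.906), Uggt1 (0.905), Txndc5 (0.901), Dhdds (0.898), Surf4 (0.893), Nme6 (0.892), Magt1 (0.885), Dpagt1 (0.884) and Ufm1 (0.881). Ddost and Magt1 encode subunits of the oligosaccharyltransferase, and Dpagt1 and Dhdds act in the synthesis of its lipid-linked sugar donor. The values are descriptions, as the points share libraries, scaling and cell make-up.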
